A study of Homo sapiens with 16 samples.

Results

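The 10 tubulin genes described here, TUBA1A, TUBA1B, TUBA1C, TUBA4A, TUBB, TUBB2A, TUBB2B, TUBB3, TUBB6 and TUBG1, were taken by gene symbol from a table of raw read counts that held 25370 genes. They were followed across 16 RNA-seq libraries of HMC3, an established human cell line that the labels call microglial, so that all libraries come from 1 line. Before exposure the cells spent 1 day in medium with charcoal-stripped serum and 1 day without serum, and the treatments lasted 1 day in medium free of serum and phenol red. The 8 conditions, with 2 libraries each, were vehicle, 0.1 nM estradiol (E2), 400 nM ketamine, 400 nM (2R,6R)-HNK, 400 nM (2S,6S)-HNK, and 0.1 nM E2 together with 400 nM of each of the 3 drugs. HNK is hydroxynorketamine, a product of ketamine metabolism, and the (2R,6R) and (2S,6S) forms are mirror images of each other. No source used here states that both libraries of a treatment are from separate cultures, so the p-values measure the spread between these libraries, which may be technical.

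Microtubules are hollow filaments assembled from dimers of 1 alpha-tubulin and 1 beta-tubulin, and they carry intracellular transport, shape the cell and form the mitotic spindle. Human cells make each subunit from several genes, called isotypes, whose proteins differ mostly in their acidic tails, while gamma-tubulin sits in ring complexes from which new microtubules start. Vertebrate cells tie the stability of alpha- and beta-tubulin mRNA to the amount of free dimer: when free dimers are plentiful, ribosomes that have just made the first residues of an alpha or beta chain are recognized and the mRNA is degraded. Microglia rebuild their microtubule network when they become reactive, and TUBB3 is best known as an isotype of neurons.

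Because the first codons take part in this regulation, the first 30 coding bases of the 10 genes are printed from the GENCODE transcript models on GRCh37, with the first 4 codons in capitals. The 4 alpha-tubulin genes come first, then the 5 beta-tubulin genes and then gamma-tubulin.
TUBA1A: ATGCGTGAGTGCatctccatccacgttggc
TUBA1B: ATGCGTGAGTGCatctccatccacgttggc
TUBA1C: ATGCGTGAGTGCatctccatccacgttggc
TUBA4A: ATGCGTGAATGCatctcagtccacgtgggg
TUBB: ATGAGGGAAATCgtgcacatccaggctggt
TUBB2A: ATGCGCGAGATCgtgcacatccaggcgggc
TUBB2B: ATGCGTGAGATCgtgcacatccaggcgggc
TUBB3: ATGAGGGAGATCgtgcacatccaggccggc
TUBB6: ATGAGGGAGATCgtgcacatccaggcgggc
TUBG1: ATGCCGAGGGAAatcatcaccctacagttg
TUBA1A, TUBA1B and TUBA1C are identical over these 30 bases. The beta-tubulin genes use synonymous codons for the same start, and TUBG1 starts with a different series of codons.

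Of the members, 5 lie in 2 groups of neighbours and the others lie apart (GRCh37, which has the chromosome sequences of hg19). TUBA1B (chr12:49521565-49525180) and TUBA1A (chr12:49578469-49582863) are on the minus strand of chromosome 12, and TUBA1C (chr12:49582519-49668383) is on the plus strand beside them. TUBB2A (chr6:3153731-3157778) and TUBB2B (chr6:3223558-3231964) are neighbours on the minus strand of chromosome 6, which also holds, far from them, TUBB (chr6:30685212-30693315). TUBA4A is at chr2:220114432-220142624, TUBB3 at chr16:89987800-90005169, TUBB6 at chr18:12307668-12344319 and TUBG1 at chr17:40761659-40767256. Counts were summed over the exons of each gene.

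Several members are near-copies of each other, which limits how far reads could be assigned to 1 gene. The coding sequences of TUBA1A, TUBA1B and TUBA1C are 96.3% to 97.3% identical, and those of TUBB2A and TUBB2B are 98.2% identical, whereas TUBB6 is 81.3% to 88.3% identical to the other beta-tubulins listed. Of the 100-base stretches of its transcript, TUBB2A shares 55.6% with another gene, TUBB2B 48.7%, TUBA1B 37.2%, TUBA1A 21.2%, TUBG1 15%, TUBA1C 12.3%, TUBB 5.42%, TUBB3 5.35%, TUBA4A 1.95% and TUBB6 none. By the study's methods only pairs that mapped to a single place were counted, so reads from such stretches may have been left out unless their mate placed them, which was not tested, and the levels of TUBB2A, TUBB2B and the TUBA1 genes are uncertain. In the GENCODE models exons of several members also overlap a counted gene on the opposite strand, TUBB6 with AFG3L2 over 837 bases, TUBA4A with STK16 over 628 and TUBA1A with TUBA1C over 345. By the study's methods counting used UCSC gene models for hg19, in which these overlaps may differ. Since no source used here says whether the counting used strand, reads in such overlaps cannot be told apart. The GENCODE exons of TUBB3 share 1584 bases with another gene model on the same strand.

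The libraries held 55300614 to 81646165 counts, of which the 10 members took 1.08% to 1.44%, and all 10 were among the 16004 genes that passed the filter on low counts. Of 14 microglial markers, 10 stayed under 10 counts in every library, including AIF1, CX3CR1, P2RY12, TMEM119, ITGAM, PTPRC and SPI1, and C1QA was at 0 throughout, so most markers that define microglia were at or near 0. The summed level of the 11 fibroblast and pericyte markers was 4270 to 6470 CPM (counts scaled to a common library size), most of it COL1A1, a collagen chain, although COL3A1 and LUM stayed under 10 counts in every library and DCN and FAP reached at most 12 and 17. By condition this sum was 4760 CPM in both vehicle libraries, 6190 and 6470 in E2+ketamine, which overlapped E2 (6230 and 6270), and lowest in E2+(2S,6S)-HNK (4270 and 4550), with 6100 and 6130 in (2R,6R)-HNK, 5290 and 5420 in E2+(2R,6R)-HNK, 5180 and 5260 in ketamine and 4860 and 5270 in (2S,6S)-HNK. PDGFRB, a growth factor receptor of pericytes, was higher in 7 of 7 treatments (log2 fold changes of 0.16 to 0.56) and COL1A2, a collagen chain, in 6 (0.04 to 0.73 over all 7), and after a correction for GC content and length they were higher in 6 and 5 treatments and COL1A2 was lower in the other 2. Of the 8 markers of this list tested, 1 to 5 were higher and 1 to 3 lower in a treatment before the correction. Of all genes 24.0% to 34.3% were called higher and 32.5% to 37.4% lower. After the correction 0 to 4 of the 8 were higher and 0 to 4 lower, beside 15.1% to 26.3% and 22.5% to 34.6% of all genes. Without the correction PDGFRA (-0.35 to -1.08) and RGS5 (-0.42 to -0.83), named after their values were seen, were lower in 6 treatments each. E2+ketamine was also the highest condition of 9 members and E2+(2S,6S)-HNK the lowest of 6, and the part of these markers in the tubulin levels was not tested. The sum compares with 71.2 to 111 CPM for the microglial markers and 44.2 to 92.2 CPM for the 12 neuronal markers. Of the neuronal markers STMN2, DCX and ELAVL4 were at 0 in every library. In each treatment genes richer in GC tended to have higher log2 fold changes (Spearman correlation across 15354 genes of 0.451 to 0.778). The genes of a comparison share the same libraries, and all treatments are set against the same vehicle libraries. The members have a GC content of 50.19% to 62.19%, above the median of 49.44% for the genes tested, so the comparisons of the members are given also after that correction. The summed levels, shares and correlations are given without it. Real changes that run with GC content are taken out by it along with any bias of the libraries.

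Per kilobase of transcript, TUBA1B and TUBB were by far the highest members, with a mean of 2779 and 1864 CPM per kb over the 8 conditions. TUBA1C (484 CPM per kb), TUBA1A (313), TUBB6 (241), TUBB2A (229.9), TUBB2B (181) and TUBG1 (135) followed, and TUBB3 (62.1) and TUBA4A (24.5) were lowest. The smallest raw count of a member in any library was 2441, for TUBA4A, so depth did not limit these measurements. The SD between the libraries of a condition averaged 0.742% of the mean for TUBB and 3.98% for TUBA1A, and it reached 13.6% for TUBA1A in E2+(2R,6R)-HNK. Since these are bulk samples, fewer cells that express a gene and less of its RNA per cell cannot be told apart.

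**Figure D1:**
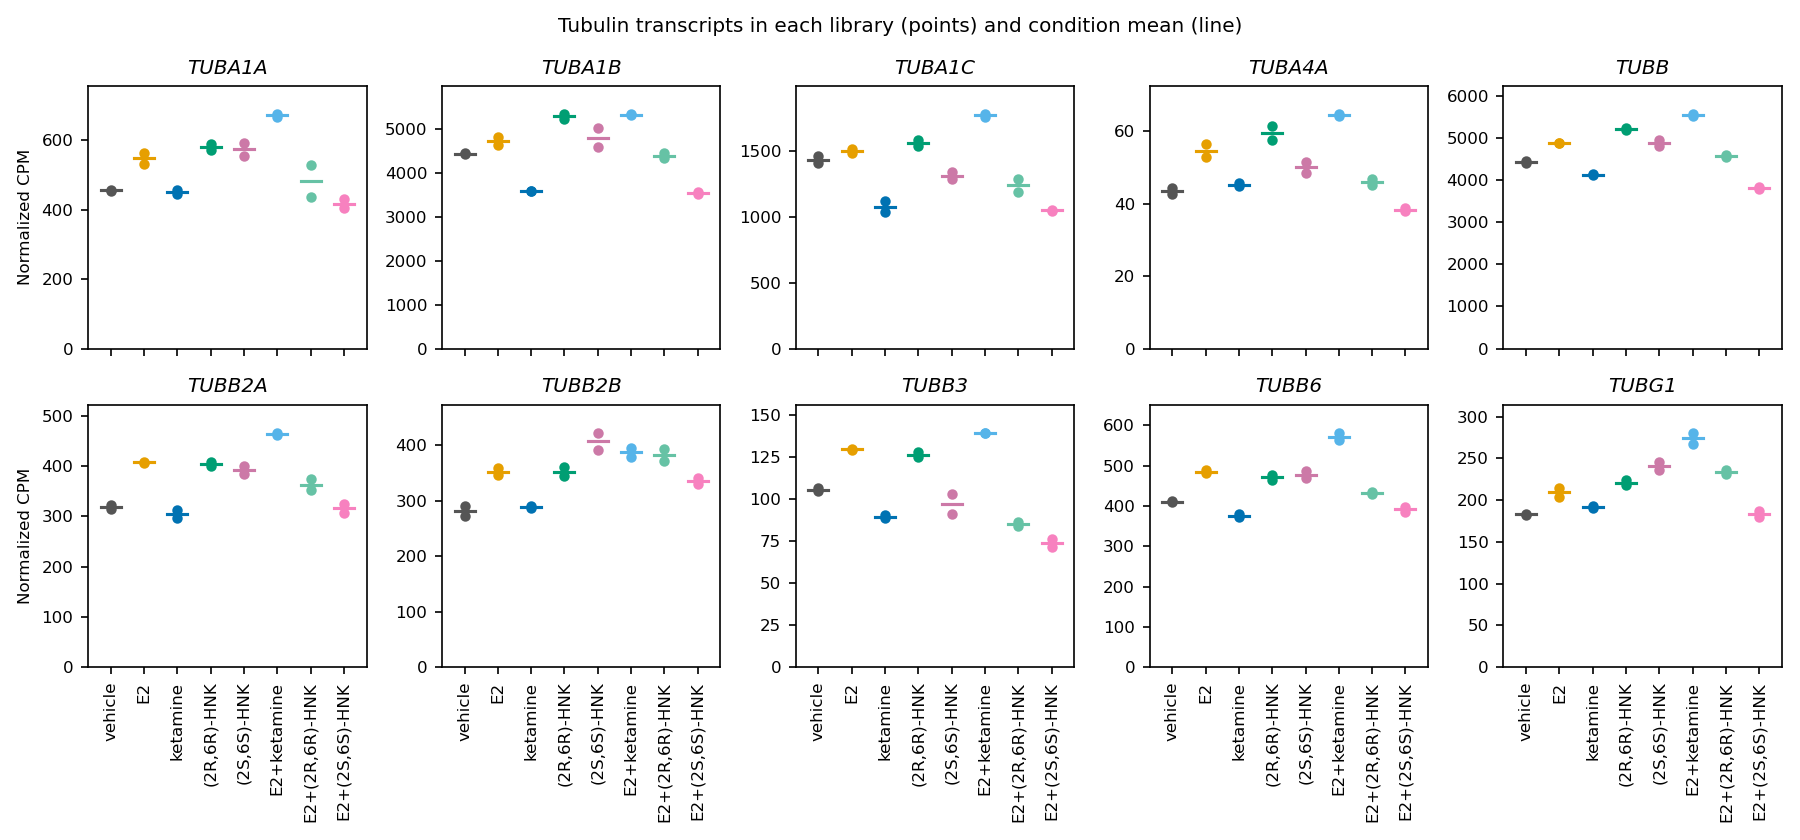
Normalized counts (CPM, y axis from 0) of the 10 tubulin genes in the 8 conditions (x axis), with a point for each of the 2 libraries and a line at their mean. E2+ketamine is the highest condition for 9 genes, TUBB2B being highest in (2S,6S)-HNK, and E2+(2S,6S)-HNK or ketamine alone is the lowest for 8.

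TUBA1B, the main alpha-tubulin of most cells, was expressed at 4459 and 4437 CPM in the vehicle libraries, at 4648 and 4818 with E2, and at 3599 and 3597 with ketamine. It reached 5347 and 5241 CPM with (2R,6R)-HNK and 4593 and 5028 with (2S,6S)-HNK. With E2 present it was 5329 and 5343 CPM with ketamine, 4450 and 4351 with (2R,6R)-HNK and 3582 and 3525 with (2S,6S)-HNK. The ketamine and E2+(2S,6S)-HNK libraries were therefore all below vehicle, and those of E2+(2R,6R)-HNK overlapped it. TUBB, the main beta-tubulin, followed a similar order, from 5568 and 5515 CPM in E2+ketamine through 4412 and 4467 in vehicle and 4146 and 4117 in ketamine to 3840 and 3800 in E2+(2S,6S)-HNK. Only its E2 and (2S,6S)-HNK libraries overlapped among neighbouring conditions.

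TUBB3, the neuronal beta-tubulin, had the widest range, 0.91 on the log2 scale between the highest and lowest condition mean. Its levels were 139.3 and 139.6 CPM in E2+ketamine, 129 and 130.2 in E2, and 128 and 125 in (2R,6R)-HNK. Vehicle stood at 106 and 105 CPM, (2S,6S)-HNK at 91.0 and 103, and ketamine at 89.0 and 90.4. The lowest values were 84.1 and 86.7 CPM in E2+(2R,6R)-HNK and 76.5 and 71.7 in E2+(2S,6S)-HNK. No neighbouring conditions in this order overlapped.

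TUBB2B, a beta-tubulin prominent in the developing brain, departed from this order. It was lowest in vehicle, at 290.4 and 272 CPM, and in ketamine, at 290.2 and 287, and highest in (2S,6S)-HNK, at 392 and 423, which overlapped E2+ketamine. E2+ketamine (379 and 395 CPM) and E2+(2R,6R)-HNK (394 and 372) overlapped with each other, as did E2 (346 and 359) and (2R,6R)-HNK (344 and 361), and E2+(2S,6S)-HNK gave 340.5 and 330.0. TUBG1, the gamma-tubulin, was likewise at its lowest in vehicle (184 and 182 CPM) and E2+(2S,6S)-HNK (187 and 179.9), and highest in E2+ketamine (267 and 281). The other members ranged from 405 to 675 CPM for TUBA1A, 1036 to 1778 for TUBA1C, 38.0 to 64.7 for TUBA4A, 297 to 467 for TUBB2A and 372 to 582 for TUBB6.

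Across the 8 condition means the alpha- and beta-tubulin members other than TUBB2B moved together, with Pearson correlations of their log2 levels from 0.78 (TUBB2A with TUBB3) to 0.98 (TUBB2A with TUBB6). TUBB2B correlated at 0.20 with TUBB3 and at 0.34 with TUBA1C, its lowest values, and at 0.84 with TUBG1, its highest. TUBG1 ranged from 0.50 with TUBB3 to 0.87 with TUBB2A. These are descriptions over 8 means of the same libraries.

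Exposure to E2 alone was followed by higher levels of all 10 members (29.9% of the genes tested were called higher and 32.7% lower at an adjusted p under 0.05). TUBB2A rose from 323 and 315 CPM to 409 and 406, a log2 fold change of 0.35 ± 0.03 (SE, adjusted p = 1.1e-15), and TUBA4A, TUBB2B and TUBB3 rose by 0.33, 0.32 and 0.29. The smallest rises were 0.06 for TUBA1C (adjusted p = 0.033, lost with DESeq2 and without the first vehicle or the second E2 library) and 0.09 for TUBA1B. The median over the members was 0.25, against -0.003 over all genes tested. After the GC and length correction 3 members were called higher (TUBA1A at 0.20, TUBB and TUBB2B at 0.07 each) and 2 lower (TUBB3 and TUBG1), with a median of 0.022, and of all genes 15.1% were then higher and 22.5% lower.

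Ketamine alone lowered 5 members and raised 1, while 26.8% of all genes were called higher and 32.5% lower. TUBA1C fell from 1406 and 1461 CPM to 1036 and 1117 (log2 fold change -0.41 ± 0.03, adjusted p = 3.8e-19), TUBA1B changed by -0.31 ± 0.02 and TUBB3 by -0.24 ± 0.04. TUBB6 and TUBB fell by 0.12 and 0.10, falls that upper-quartile scaling lost (-0.041, adjusted p = 0.14, and -0.020, adjusted p = 0.32) in giving 3 members higher and 3 lower, and TUBG1 rose by 0.07 (adjusted p = 0.042). For TUBG1 the call was lost when any 1 of the 4 vehicle and ketamine libraries was left out. TUBA1A (-0.017), TUBA4A (0.060), TUBB2A (-0.062) and TUBB2B (0.037) did not pass, with 95% confidence intervals of -0.10 to 0.06, -0.03 to 0.15, -0.12 to -0.005 and -0.03 to 0.10. TUBB2A passed without the second vehicle or the second ketamine library, and TUBB2B without the first vehicle library. After the correction all 10 were lower, with a median of -0.27 against -0.047 over all genes, of which 18.3% were then higher and 31.7% lower.

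(2R,6R)-HNK alone raised all 10 members, with 31.7% of all genes called higher and 34.9% lower. TUBA4A rose from 44.2 and 42.6 CPM to 57.5 and 61.5 (log2 fold change 0.45 ± 0.05, adjusted p = 1.3e-12), TUBA1A and TUBB2A by 0.35 and 0.34, and TUBA1B by 0.25 ± 0.02. The smallest rise was 0.12 for TUBA1C. The median over the members was 0.27, against -0.023 over all genes. After the correction the 4 alpha-tubulin genes and TUBB remained higher, TUBA1A at 0.23, TUBA4A at 0.15, TUBB at 0.14 and TUBA1B and TUBA1C at 0.08 each, while TUBB2A, TUBB3, TUBB6 and TUBG1 were called lower (20.3% of all genes higher and 24.7% lower).

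(2S,6S)-HNK alone raised 8 members and lowered 2, with 32.1% of all genes called higher and 35.8% lower. TUBB2B rose most, by 0.53 ± 0.03 (adjusted p = 7.7e-21), followed by TUBG1 with 0.40 and TUBA1A with 0.33. TUBA1C changed by -0.13 ± 0.03 (adjusted p = 2.7e-05) and TUBB3 by -0.12 ± 0.04 (adjusted p = 0.0041). Both falls were lost with DESeq2 and with upper-quartile scaling, and that of TUBB3 was lost without the first (2S,6S)-HNK library (-0.038). The correction left 3 members higher (TUBA1A at 0.23, TUBB2B at 0.20 and TUBB at 0.04) and 5 lower, TUBB3 reaching -0.64, with 25.5% of all genes higher and 31.9% lower.

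E2+ketamine gave the highest mean level of every member but TUBB2B, though its TUBA1B libraries overlapped those of (2R,6R)-HNK. All 10 members rose, against 34.3% of all genes called higher and 37.4% lower, and the median log2 fold change was 0.47 against -0.035 over all genes. TUBG1 rose by 0.58 ± 0.03, TUBA4A by 0.57 ± 0.05, TUBA1A by 0.56 ± 0.04 and TUBB2A by 0.54 ± 0.03, and the smallest rise was that of TUBA1B, 0.26 ± 0.02. After the correction TUBA1A (0.42), TUBA1C (0.27), TUBB (0.21), TUBA4A (0.18), TUBG1 (0.06) and TUBA1B (0.04) were still called higher and TUBB2A and TUBB3 were called lower, with 24.6% of all genes higher and 28.3% lower.

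E2+(2R,6R)-HNK raised 5 members and lowered 2, with 33.4% of all genes called higher and 36.3% lower. TUBB2B rose by 0.45 ± 0.03, TUBG1 by 0.35 ± 0.03 and TUBB2A by 0.19 ± 0.03, whereas TUBB3 changed by -0.31 ± 0.04 (adjusted p = 5.1e-10) and TUBA1C by -0.21 ± 0.03. The TUBA1A libraries of this condition, 529.7 and 437 CPM, lay on either side of vehicle. Its log2 fold change of 0.08 did not pass (adjusted p = 0.056), turned to -0.06 without the first of them and was called at 0.22 without the second. The rise of TUBB, 0.05, was lost without that first library or the first vehicle library. After the correction TUBB2B alone was higher and 7 members were lower, TUBB3 at -0.86, with 26.3% of all genes higher and 33.8% lower.

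E2+(2S,6S)-HNK lowered 7 members and raised 1, with 24.0% of all genes called higher and 35.7% lower. TUBB3 fell from 106 and 105 CPM to 76.5 and 71.7 (log2 fold change -0.51 ± 0.04, adjusted p = 2.0e-16), TUBA1C changed by -0.45 ± 0.03, TUBA1B by -0.32 ± 0.02 and TUBB by -0.22 ± 0.02. TUBB2B again rose, by 0.25 ± 0.03, and TUBB2A (-0.0096) and TUBG1 (0.0054) did not pass. The falls of TUBA1A (-0.13) and TUBB6 (-0.07) were lost without the second E2+(2S,6S)-HNK library, and that of TUBB6 also without the first vehicle library. The falls of TUBA1A and TUBB6 were lost with DESeq2 too. After the correction 9 members were lower and TUBB2B was higher (34.6% and 22.7% of all genes). Upper-quartile scaling, which moved the median of all genes in this comparison by 0.10, gave 3 members higher and 4 lower.

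No member reached a log2 fold change of 1 or more with an adjusted p under 0.05 in edgeR against vehicle, and none did so at an unadjusted p under 0.05 or in DESeq2. Of all genes, E2 moved 1.81% beyond that limit, ketamine 3.56%, (2R,6R)-HNK 3.75%, (2S,6S)-HNK 9.08%, E2+ketamine 11.0%, E2+(2R,6R)-HNK 11.5% and E2+(2S,6S)-HNK 5.85%. The 7 comparisons share the vehicle libraries.

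**Figure D2:**
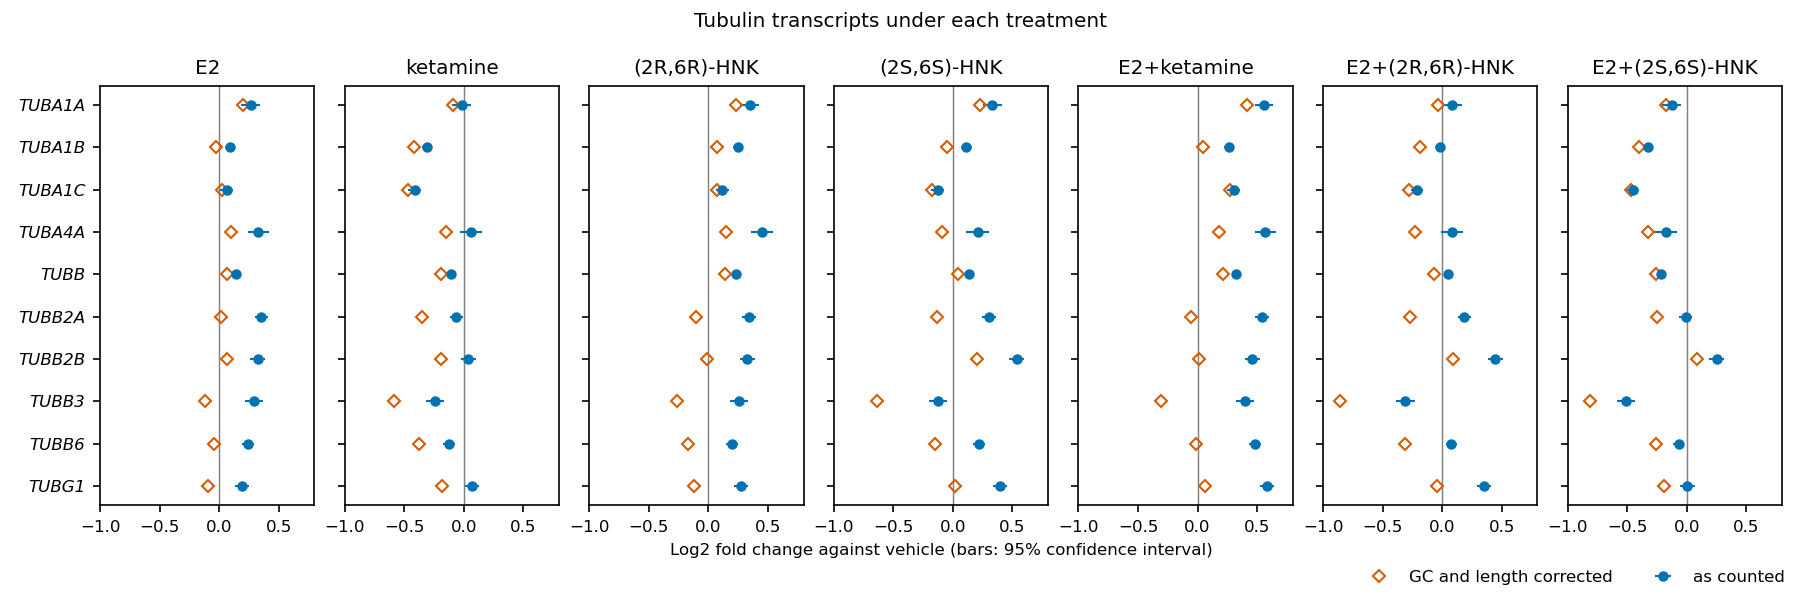
Log2 fold change against vehicle (x axis) of each tubulin gene (y axis) under the 7 treatments, as counted with its 95% confidence interval (filled points) and after the GC and length correction (open diamonds). Most open diamonds lie to the left of the filled points, the gap being widest for TUBB3, and TUBA1A keeps a rise in E2, (2R,6R)-HNK, (2S,6S)-HNK and E2+ketamine.

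The 3 drugs were then compared directly at 400 nM without E2, in 3 pairs. Ketamine gave lower levels of all 10 members than either metabolite. Against (2R,6R)-HNK (22.6% of all genes called lower) the difference ranged from -0.20 for TUBG1 to -0.56 ± 0.02 for TUBA1B (adjusted p = 2.1e-26), with TUBA1C at -0.53 and TUBB3 at -0.50, and the median was -0.38. Against (2S,6S)-HNK (24.2% called lower) it ranged from -0.11 for TUBB3 (adjusted p = 0.011) to -0.50 ± 0.03 for TUBB2B, with TUBA1B at -0.42, and the median was -0.34. The correction kept all 10 lower against (2R,6R)-HNK (median -0.31, 24.9% of all genes lower) and 8 against (2S,6S)-HNK (24.6% lower), where TUBA4A (-0.06) and TUBB3 (0.05) no longer passed. Both were also lost when a library was left out, TUBB3 without the first ketamine or the second (2S,6S)-HNK library (-0.10 and -0.019) and TUBA4A without the second library of either drug (-0.13 and -0.10).

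The mirror-image metabolites differed from each other in 7 members without E2. (2R,6R)-HNK gave higher levels of TUBB3 (0.38 ± 0.04, adjusted p = 4.8e-12), TUBA1C (0.25 ± 0.03), TUBA4A (0.24 ± 0.05), TUBA1B (0.14 ± 0.02) and TUBB (0.10 ± 0.02), against 21.0% of all genes called higher. It gave lower levels of TUBB2B (-0.21 ± 0.03, adjusted p = 1.8e-07) and TUBG1 (-0.13 ± 0.03), against 22.4% called lower. TUBA1A, TUBB2A and TUBB6 showed no difference past the threshold, with 95% confidence intervals of -0.06 to 0.10, -0.02 to 0.10 and -0.07 to 0.03. The same 7 members passed in the same directions after the correction, with TUBB3 at 0.37 and TUBB2B at -0.21, beside 25.2% of all genes higher and 21.3% lower.

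With E2 present the order of the drugs turned. E2+ketamine gave higher levels of 9 members than E2+(2R,6R)-HNK (25.3% of all genes called higher), led by TUBB3 with 0.71 ± 0.04 and TUBA1C with 0.52 ± 0.03. TUBB2B was the exception at 0.016, with a 95% confidence interval of -0.05 to 0.08. Against E2+(2S,6S)-HNK all 10 were higher with E2+ketamine (31.7% called higher), TUBB3 by 0.91 ± 0.04 (adjusted p = 1.4e-26), TUBA1C by 0.75 ± 0.03 and TUBB2B by 0.21 ± 0.03. After the correction 9 members stayed higher in both comparisons, with medians of 0.29 and 0.46 (28.5% and 31.6% of all genes higher), and TUBB2B was called lower in both (22.5% and 25.1% lower).

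E2+(2R,6R)-HNK in turn gave higher levels than E2+(2S,6S)-HNK for all 10 members (29.1% of all genes called higher), from 0.15 ± 0.02 for TUBB6 to 0.35 ± 0.03 for TUBG1. TUBA1B differed by 0.31 ± 0.02 and TUBB by 0.26 ± 0.02, and the difference in TUBA1A, 0.21, was lost without the first E2+(2R,6R)-HNK library (0.07). The correction left 5 higher (TUBA1A, TUBA1B, TUBA1C, TUBB and TUBG1, at 0.15 to 0.21) and TUBB6 lower, with 17.9% of all genes higher and 12.1% lower. Each of these sets of pairs shares its libraries.

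The effects of the drugs without and with E2 were compared by an interaction term, the effect of a drug against E2 minus its effect against vehicle. For ketamine the median effect over the members was -0.08 without E2 and 0.21 with E2. The interaction was above 0 in 9 members (24.5% of all genes called higher), led by TUBA1C with 0.65 ± 0.04 (adjusted p = 7.0e-20), TUBA1B with 0.48 ± 0.03 and TUBB6 with 0.36 ± 0.03. TUBB2B, at 0.10 ± 0.04, did not pass (adjusted p = 0.068), but passed without the second vehicle, the second E2 or the first E2+ketamine library. TUBA4A, at 0.18 ± 0.06, was lost without the first vehicle, the first E2, the second ketamine or the first E2+ketamine library. Upper-quartile scaling lost it too (0.095). After the correction all 10 passed, with a median of 0.34 against 0.058 over all genes, of which 26.1% were higher.

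For (2R,6R)-HNK the median effect was 0.27 without E2 and -0.17 with E2, and the interaction was below 0 in all 10 members (25.2% of all genes called lower). TUBB3 changed most: it was 0.26 against vehicle without E2 and -0.60 against E2 in its presence, an interaction of -0.86 ± 0.05 (adjusted p = 2.3e-19). TUBA4A followed with -0.70 ± 0.06 and TUBA1A with -0.53 ± 0.06, and TUBG1 had the smallest interaction, -0.11 ± 0.04 (adjusted p = 0.016), which was lost without the second vehicle, the second E2, the second (2R,6R)-HNK or the first E2+(2R,6R)-HNK library. The correction kept 8 members below 0, TUBB3 at -0.47, turned TUBG1 to 0.17 and left TUBB2B at 0.037, with 22.2% of all genes called lower and 22.2% higher.

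For (2S,6S)-HNK the median effect was 0.21 without E2 and -0.38 with E2, and the interaction was again below 0 in all 10 members (32.2% of all genes called lower). It ranged from -0.39 ± 0.04 for TUBA1C to -0.72 ± 0.06 for TUBA1A (adjusted p = 2.7e-16), with TUBA4A at -0.71, TUBB3 at -0.68 and TUBB2A at -0.67. After the correction 9 members stayed below 0, but the median shrank from -0.60 to -0.25, TUBB2A stood at -0.13, TUBG1 at -0.12 and TUBB6 at -0.07, and TUBB3 (-0.06) no longer passed (21.0% of all genes lower). The 3 interactions share the vehicle and E2 libraries.

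**Figure D3:**
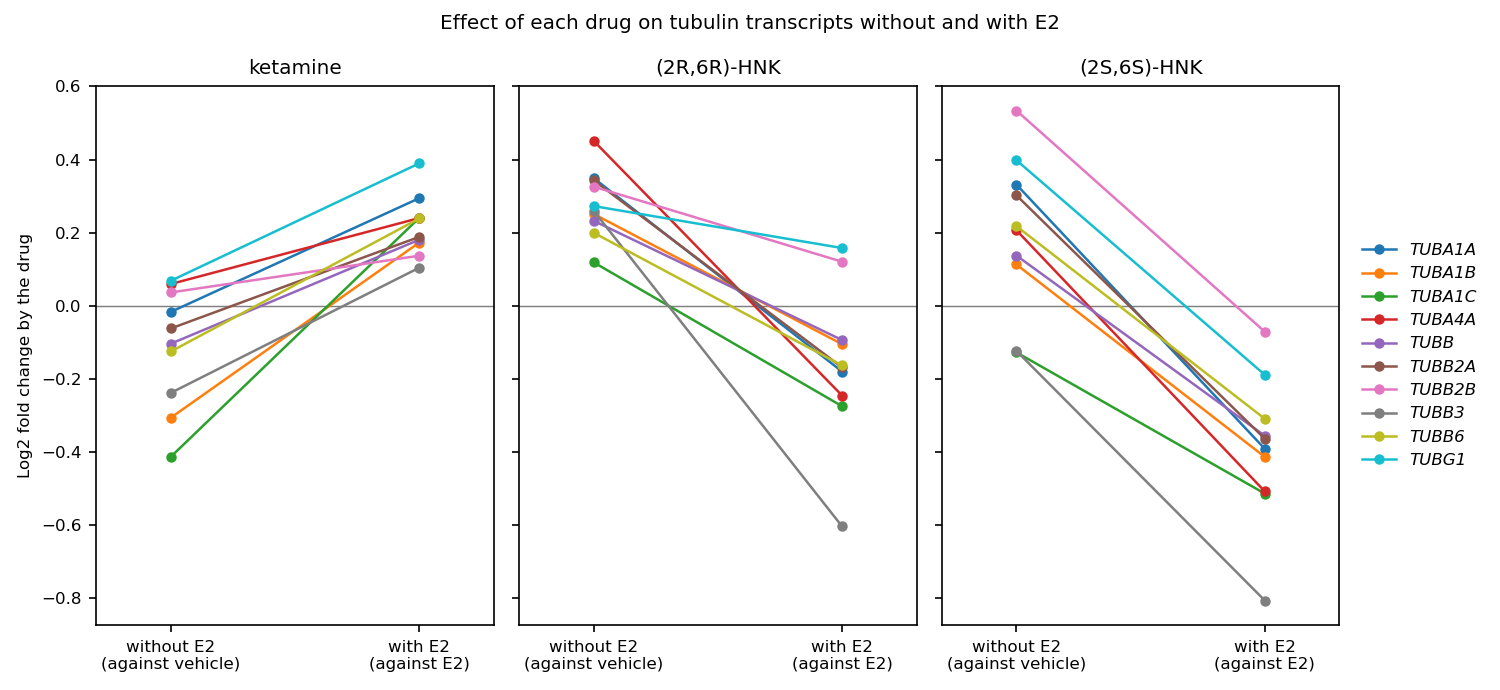
Log2 fold change by each drug (y axis) without E2, taken against vehicle, and with E2, taken against E2 (x axis), with a line for each of the 10 tubulin genes. The lines rise for ketamine and fall for both metabolites, TUBB3 dropping in the presence of E2 to -0.81 for (2S,6S)-HNK.

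The total of each subunit was compared by summing CPM per kb over all alpha- or all beta-tubulin genes in the table, including TUBB4B, TUBB4A and other genes outside the 10 members. Alpha-tubulin summed to 3536 CPM per kb in vehicle (SD 5.26, n = 2), 2885 (SD 14.1) in ketamine, 4341 (SD 1.59) in E2+ketamine and 2825 (SD 34.3) in E2+(2S,6S)-HNK. Beta-tubulin gave 3013 (SD 2.69), 2788 (SD 7.63), 3972 (SD 12.1) and 2674 (SD 50.2) in the same conditions. Both pools thus had the same highest and lowest condition. The ratio of alpha- to beta-tubulin was highest in vehicle, at 1.172 and 1.176, and in (2R,6R)-HNK, at 1.172 and 1.153, and lowest in ketamine, at 1.033 and 1.037.

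The shares of the main isotypes in the pools moved little. TUBA1B made up 75.6% to 78.3% of alpha-tubulin in the condition means, TUBA1C 12.3% to 14.4%, TUBA1A 7.71% to 9.35% and TUBA4A 0.600% to 0.766%. Of beta-tubulin, TUBB made up 55.5% to 58.9% and TUBB4B 19.2% to 21.8%, with TUBB6 at 6.97% to 7.79% and TUBB2A at 6.55% to 7.33%. TUBB2B rose from 4.86% (SD 0.219, n = 2) in vehicle to 6.52% (SD 0.0218) in E2+(2S,6S)-HNK. TUBB3 went the other way, from 2.06% (SD 0.0162) in vehicle and 2.21% (SD 0.00358) in E2 to 1.62% (SD 0.0445) in E2+(2S,6S)-HNK and 1.57% (SD 0.0401) in E2+(2R,6R)-HNK.

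**Figure D4:**
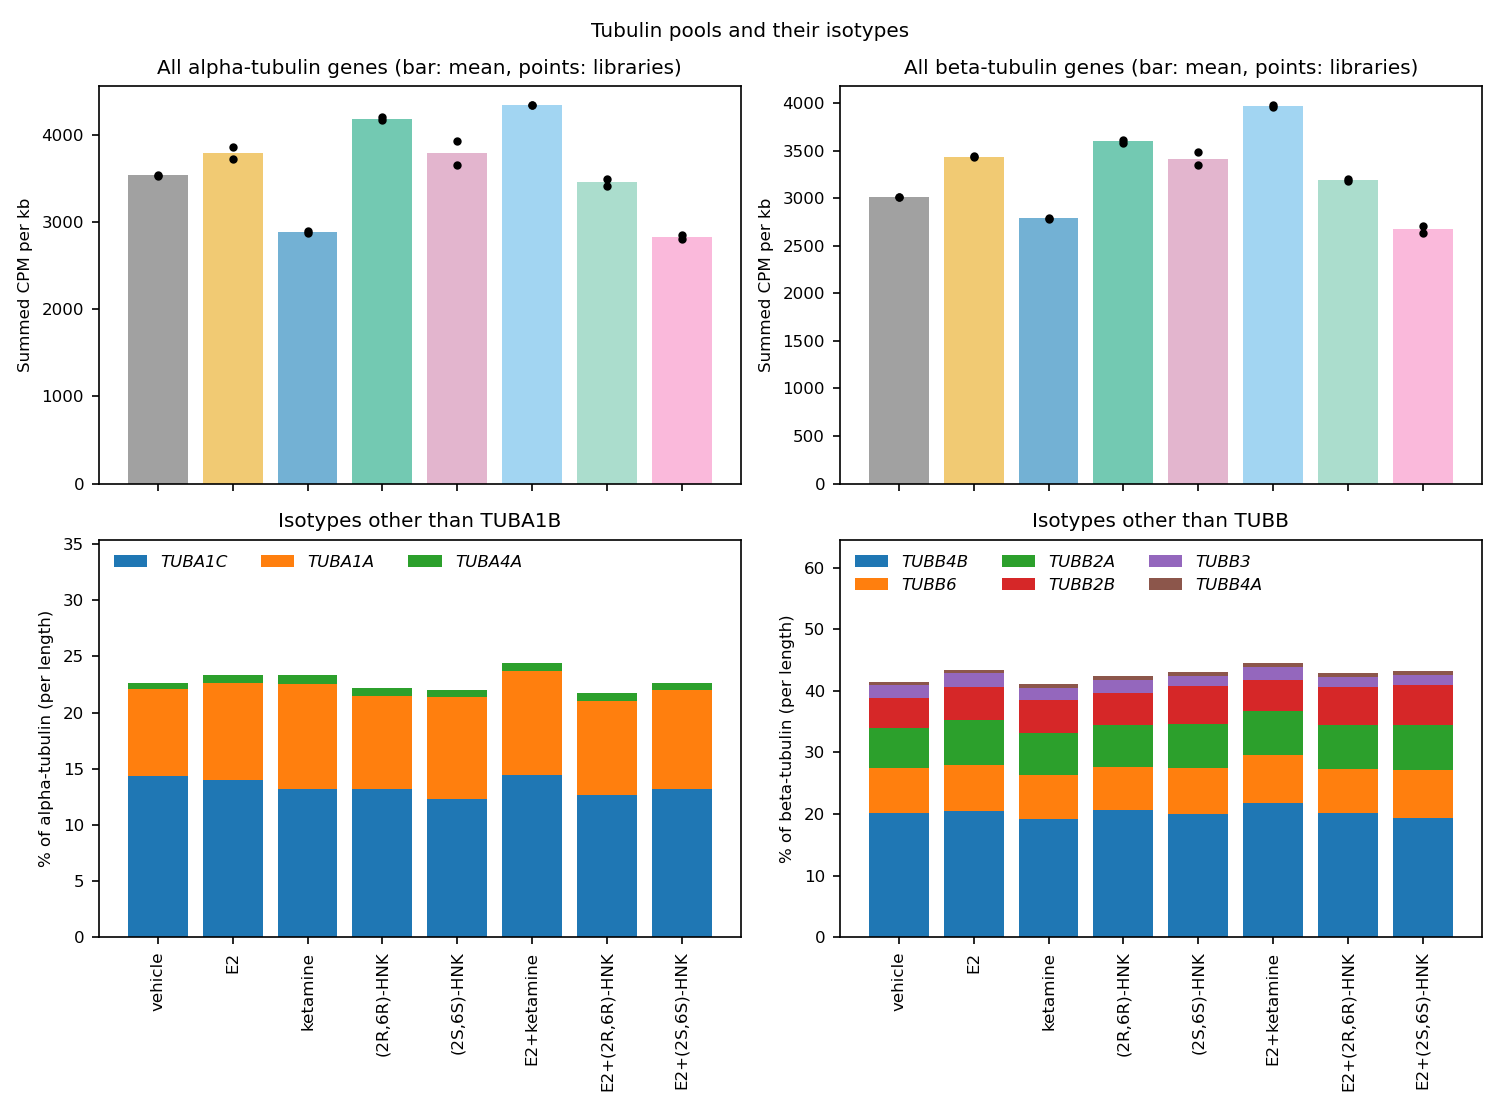
Top, summed CPM per kb (y axis from 0) of all alpha- and all beta-tubulin genes in the 8 conditions (bars, mean of 2 libraries shown as points). Bottom, percent of each pool held by isotypes other than TUBA1B and TUBB, stacked: the pools are highest in E2+ketamine and lowest in E2+(2S,6S)-HNK, while TUBB4B stays between 19.2% and 21.8% of beta-tubulin.

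Among the 13 other tubulin genes present, 10 could be tested, of which 2 to 6 were higher and 1 to 3 lower in a treatment, beside 24.0% to 34.3% of all genes higher and 32.5% to 37.4% lower. TUBB4B, a broadly expressed beta-tubulin with a mean of 1030 CPM that was named after its values were seen, was called higher in 5 treatments and lower in 2, with log2 fold changes of -0.24 to 0.51. TUBB4A, a beta-tubulin of oligodendrocytes and neurons, and TUBG2, a second gamma-tubulin gene, were higher in 7 of 7 treatments, TUBB4A by 0.14 to 0.73 and TUBG2 by 0.27 to 0.65. Most of these calls were lost after the correction, when TUBB4A was higher in 3 treatments and lower in 1 (-0.12 to 0.13) and TUBG2 was higher in 3 (-0.09 to 0.23). Of the 10 genes tested, 0 to 4 were then higher and 1 or 2 lower in a treatment, beside 15.1% to 26.3% and 22.5% to 34.6% of all genes.

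Most of the genes that fold tubulin were lower in each of the 7 treatments, beside 32.5% to 37.4% of all genes lower and 24.0% to 34.3% higher. Of 21 genes for the prefoldin and CCT chaperones and the tubulin cofactors, 15 were lower and 4 higher with E2, 15 and 3 with ketamine, 12 and 5 with (2R,6R)-HNK. (2S,6S)-HNK gave 14 and 4. With E2 present they were 13 and 6 for ketamine, 15 and 4 for (2R,6R)-HNK. For (2S,6S)-HNK they were 14 and 2. CCT8, a subunit of the CCT ring that folds new tubulin chains, changed by -0.54 to -1.26 and was lower in 7 of 7 treatments, as was VBP1, a prefoldin subunit that hands them over, with -0.62 to -1.23. The median GC content of this list is 44.52%, below that of the genes tested, and after the correction 11 to 15 of the 21 were lower and 3 to 5 higher, beside 22.5% to 34.6% of all genes lower and 15.1% to 26.3% higher. CCT8 (-0.33 to -0.73) and VBP1 (-0.31 to -0.55) were then lower in 7 of 7 treatments. All 7 comparisons share the vehicle libraries, so counts of treatments in this and the other lists are not independent.

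In the gamma-tubulin ring complex and its partners (13 genes) the treatments split the list, with 5 or 6 genes higher and 4 to 8 lower, beside 24.0% to 34.3% of all genes called higher and 32.5% to 37.4% lower. After the correction 2 to 7 were higher and 3 to 6 lower. TUBGCP6, a ring subunit, rose by 0.40 to 0.85 in the 7 treatments, and NEDD1, which anchors the rings at centrosomes and spindles, changed by -0.28 to -1.20. Genes for enzymes that modify the tubulin tails (20 tested) were also mixed, with 5 to 9 higher and 4 to 6 lower. VASH1, which removes the last tyrosine of alpha-tubulin, rose by 0.46 to 1.03 in 7 of 7 treatments, and AGTPBP1, which trims glutamates from the tails, changed by -0.47 to -1.16. After the correction TUBGCP6 was higher in 6 of 7 treatments (-0.01 to 0.39), NEDD1 lower in 5 (-0.37 to 0.06), VASH1 higher in 5 (0.09 to 0.54) and AGTPBP1 lower in 7 (-0.19 to -0.47). Of the tail enzymes 3 to 10 were then higher and 4 or 5 lower, when 15.1% to 26.3% of all genes were higher and 22.5% to 34.6% lower.

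Of 23 microtubule-associated genes tested, 10 to 14 were lower and 7 to 9 higher, and after the correction 10 to 15 were lower and 2 to 7 higher, beside the same shares of all genes as for the folding list. CLIP1, which tracks growing microtubule ends, changed by -0.74 to -1.21 and CLASP2, which stabilizes them, by -0.68 to -1.22, and both were lower in 7 of 7 treatments after the correction too (CLIP1 by -0.52 to -0.82, CLASP2 by -0.32 to -0.59). Among 12 mitotic genes 10 or 11 were lower and 0 to 2 higher in each treatment, beside 32.5% to 37.4% of all genes lower and 24.0% to 34.3% higher. KIF11, the motor that separates spindle poles, changed by -0.79 to -1.16 and CENPF, a kinetochore protein, by -0.75 to -1.04. The summed level of the mitotic list was 3150 to 3240 CPM in the vehicle libraries and 2190 to 2540 in the treated libraries. The median GC content of the mitotic list is 43.26%, and after the correction 6 to 12 of its genes were lower and 0 to 4 higher (6 and 4 with (2S,6S)-HNK, 7 and 3 with E2+(2R,6R)-HNK). Of all genes 22.5% to 34.6% were then lower and 15.1% to 26.3% higher. After the correction KIF11 stood at -0.38 to -0.57 and CENPF at -0.32 to -0.69. Whether cell division or GC content had a part in the tubulin levels was not tested.

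The 5 genes most like TUBB3 in pattern, of 10364 compared over the 8 condition means, were ARPC4 (Pearson correlation 0.9952), DHX37 (0.9905), TRMT61A (0.9884), CORO1A (0.9869) and GRWD1 (0.9867). ARPC4 is a subunit of the Arp2/3 complex that branches actin filaments, and CORO1A is an actin-binding coronin. The correlations are a description over 8 means that share the same libraries. Of the markers of neurons, where TUBB3 is best known, INA, an intermediate filament protein, changed by -0.33 to -1.04 in the 7 treatments (-0.40 to -1.15 after the correction), and the summed level of the 12 neuronal markers was 88.8 to 92.2 CPM in vehicle and 44.2 to 73.1 CPM in the treated libraries. That sum is mostly INA (mean 59.3 CPM). The other 4 markers tested, RBFOX3, SYT1, SYP and SNAP25, averaged 0.246 to 1.62 CPM and were lower in 0 of 7 treatments, and SYP and SNAP25 were each higher in 1. Their part in the TUBB3 levels was not tested.

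RefSeq promoter sequences (GRCh38.p14, 250 bases before each transcription start) were matched to the 10 genes by symbol and gave 15 promoters. The letters CCAAT, read on either strand over 250 bases before to 50 after the start, were present in 9 of the 15 and in 34.6% of all 35116 promoters of that table. GGGCGG was present in 10 of 15 against 45% of all, TATAAA in 1 of 15 against 11.5%, TTTGAA in 3 of 15 against 15.2%, and TTCNNNGAA in 0 of 15 against 7.66%. The 15 are not independent, since a gene can have several: the first 2 TUBA1C promoters share 157 bases and the same CCAAT, counted in both, and the 3 with TTTGAA are all of TUBA1C. The promoters of TUBB2A and TUBB2B, whose coding sequences are nearly identical and whose levels differed in response, and the TUBB3 promoter with a CCAAT match are printed 5′ to 3′ on the strand of the gene. Capitals mark the CCAAT motif, the GGGCGG motif and the TATAAA motif on either strand.
TUBB2A: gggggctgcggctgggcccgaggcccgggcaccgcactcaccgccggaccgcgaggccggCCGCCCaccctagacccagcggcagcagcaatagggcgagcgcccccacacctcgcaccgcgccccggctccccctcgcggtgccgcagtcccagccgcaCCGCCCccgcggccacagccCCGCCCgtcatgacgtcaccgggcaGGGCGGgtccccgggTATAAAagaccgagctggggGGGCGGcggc
TUBB2B: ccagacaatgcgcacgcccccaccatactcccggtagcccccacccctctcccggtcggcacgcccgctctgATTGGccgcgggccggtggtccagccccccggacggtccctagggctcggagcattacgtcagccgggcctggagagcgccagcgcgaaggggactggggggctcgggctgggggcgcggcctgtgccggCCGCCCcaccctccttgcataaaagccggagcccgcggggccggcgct
TUBB3: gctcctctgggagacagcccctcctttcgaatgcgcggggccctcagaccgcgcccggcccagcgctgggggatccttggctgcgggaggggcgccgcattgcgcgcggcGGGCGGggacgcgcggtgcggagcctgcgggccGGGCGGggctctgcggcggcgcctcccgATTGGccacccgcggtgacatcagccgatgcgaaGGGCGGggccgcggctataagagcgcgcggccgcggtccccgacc
TUBB2A holds TATAAA at position -30 from its start and 5 matches of GGGCGG but no CCAAT. TUBB2B holds CCAAT at position -178 and 1 match of GGGCGG. In the TUBB3 promoter CCAAT lies at position -79. These matches describe the letters in the window and say nothing of whether a factor binds there.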

How the data were processed

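RNA of HMC3 cells was made into cDNA libraries with a NuGEN Ovation kit and sequenced as paired reads. According to the submitters' processing notes the authors aligned reads with TopHat2 2.0.14 and Bowtie2 2.2.6 to hg19 and counted them with featureCounts 1.4.6. The deposited values are raw counts per gene, not normalized, which by the study's methods are of uniquely mapped read pairs. Whether counting used strand is not given in the sources used here. Of counts from 1 to 9, 65.8% were even, against 49.9% of high counts, as counting both mates of a pair would also give, so whether 1 count is a pair or a read was not settled. The members lie far above that range.

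Counts of all 16 libraries were fitted in R 4.3.3 with edgeR 4.0.16 (default low-count filter, TMM scaling, quasi-likelihood test, 8 residual degrees of freedom), giving 16004 genes in 16 comparisons. Adjusted p-values are Benjamini-Hochberg values over all genes tested in a comparison, and a gene was called at an adjusted p under 0.05. Log2 fold changes are given with their SE. CPM are normalized with TMM. The members and the other gene lists were chosen with earlier results of these data known. All members are named. From each other list, the 2 genes averaging 5 CPM or more that had the largest median absolute change over the 7 treatments are named, and the 5 genes most like the member with the widest range. Lengths and GC content came from GENCODE on GRCh37 and were had for 15354 genes (95.94%). The counts used other gene models, those of UCSC for hg19, so lengths may differ from those counted. The GC and length correction was a loess curve per library (span 0.5) used as an offset.

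Alternatives were DESeq2 1.42.0, a fit of the compared groups only, 2 other filters, upper-quartile scaling, a replicate block, the GC and length correction, and leaving out each library. The counts of the other lists under the correction and upper-quartile scaling, and the shares of all genes under the correction, were added after seeing the data. The fit was tested on simulated data with known changes. At 5 CPM or more it recovered 88.5% of log2 changes of 0.3 and 100% of those of 1. At all levels it recovered 56% and 86%, with 3 false calls among 15804 unchanged genes. The simulation held no trend with GC content.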

Additional observations from a re-analysis of the deposited data

Results flagged for a closer look

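The effect of a drug differed without and with E2, by the interaction term of edgeR's quasi-likelihood test (log2 scale), in 29 combinations of drug and member. For ketamine (24.5% of all genes called higher) it was above 0 in TUBA1A (0.31), TUBA1B (0.48), TUBA1C (0.65), TUBA4A (0.18), TUBB (0.28), TUBB2A (0.25), TUBB3 (0.34), TUBB6 (0.36) and TUBG1 (0.32). With upper-quartile scaling TUBA4A (0.095) did not pass.

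For (2R,6R)-HNK (25.2% of all genes called lower) it was below 0 in TUBA1A (-0.53), TUBA1B (-0.36), TUBA1C (-0.39), TUBA4A (-0.70), TUBB (-0.33), TUBB2A (-0.51), TUBB2B (-0.21), TUBB3 (-0.86), TUBB6 (-0.36) and TUBG1 (-0.11). The GC and length correction turned TUBB2B to 0.037 and TUBG1 to 0.17 and left TUBB2A at -0.18, TUBB3 at -0.47 and TUBB6 at -0.09.

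For (2S,6S)-HNK (32.2% of all genes called lower) it was below 0 in TUBA1A (-0.72), TUBA1B (-0.53), TUBA1C (-0.39), TUBA4A (-0.71), TUBB (-0.49), TUBB2A (-0.67), TUBB2B (-0.61), TUBB3 (-0.68), TUBB6 (-0.53) and TUBG1 (-0.59). With the correction TUBB3 (-0.06) did not pass, and the values were -0.33 for TUBA1B, -0.34 for TUBA4A, -0.13 for TUBB2A, -0.18 for TUBB2B, -0.07 for TUBB6 and -0.12 for TUBG1.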

How the results depend on the processing

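The counts of the members were high in every library, and the cause was not tested for any change below. The GC and length correction gave other directions for TUBA1B (-0.025), TUBB3 (-0.12), TUBB6 (-0.043) and TUBG1 (-0.098) under E2, for TUBA4A (-0.15), TUBB2B (-0.19) and TUBG1 (-0.18) under ketamine, and for TUBB2A (-0.10), TUBB2B (-0.014), TUBB3 (-0.27), TUBB6 (-0.17) and TUBG1 (-0.12) under (2R,6R)-HNK. It did so for TUBA1B (-0.049), TUBA4A (-0.089), TUBB2A (-0.13) and TUBB6 (-0.15) under (2S,6S)-HNK and for TUBB2A (-0.054), TUBB3 (-0.31) and TUBB6 (-0.016) under E2+ketamine. Under E2+(2R,6R)-HNK it turned TUBA1A (-0.033), TUBA4A (-0.23), TUBB (-0.071), TUBB2A (-0.27), TUBB6 (-0.31) and TUBG1 (-0.046), and under E2+(2S,6S)-HNK TUBG1 (-0.20). Between compounds it turned TUBB3 for ketamine against (2S,6S)-HNK (0.049), TUBB2A (-0.023), TUBB3 (-0.044) and TUBB6 (-0.053) for E2+(2R,6R)-HNK against E2+(2S,6S)-HNK, and TUBB2B for E2+ketamine against E2+(2R,6R)-HNK (-0.076) and against E2+(2S,6S)-HNK (-0.069). Of the interactions with (2R,6R)-HNK it turned TUBB2B (0.037) and TUBG1 (0.17). The members called higher and lower after it were 3 and 2 with E2, 0 and 10 with ketamine, 5 and 4 after (2R,6R)-HNK exposure, 3 and 5 for (2S,6S)-HNK, 6 and 2 with E2+ketamine, 1 and 7 with E2+(2R,6R)-HNK, and 6 differed between the metabolites with E2.

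The replicate numbers did not pair the libraries (correlations of -0.147 to 0.0874 over 28 pairs of conditions), and a replicate block changed no call of a member, with 9986 genes called for E2 in place of 10007. With the block and the correction together the values were those of the correction alone, rounded alike, except TUBA1A under E2+(2R,6R)-HNK (-0.034), TUBG1 under E2+(2S,6S)-HNK (-0.19), TUBB3 for ketamine against (2S,6S)-HNK (0.050) and between the metabolites with E2 (-0.045), and 4 members called higher with E2.

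Upper-quartile scaling turned TUBA1A (0.067) and TUBB2A (0.022) under ketamine, TUBA1B under E2+(2R,6R)-HNK (0.066), TUBB2A (0.095) and TUBB6 (0.036) under E2+(2S,6S)-HNK and TUBB2B for E2+ketamine against E2+(2R,6R)-HNK (-0.0031). It gave 3 members higher and 3 lower with ketamine, where TUBB and TUBB6 lost their calls, 0 lower with (2S,6S)-HNK, 8 higher with E2+(2R,6R)-HNK, and 3 higher and 4 lower with E2+(2S,6S)-HNK. For the interaction of ketamine with E2 this scaling called 8 members higher, and TUBA4A (0.095) lost its call. DESeq2 turned TUBA1A under ketamine (0.013), TUBA1B under E2+(2R,6R)-HNK (0.012) and TUBB2A under E2+(2S,6S)-HNK (0.0070), and called 0 lower with (2S,6S)-HNK, 9 higher with E2 and 5 lower with E2+(2S,6S)-HNK. Fits of the compared groups only turned TUBA1A under ketamine (0.010), TUBA1B under E2+(2R,6R)-HNK (0.0024) and TUBB2A (0.062) and TUBB6 (0.0038) under E2+(2S,6S)-HNK, and called 2 higher with ketamine and 3 higher and 4 lower with E2+(2S,6S)-HNK. A minimum of 10 counts in every library turned TUBB2A under E2+(2S,6S)-HNK (0.0037).

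Leaving out 1 library, where the lone one left is assumed to vary like the other groups, gave 0 to 1 members higher with ketamine and 1 to 2 lower with (2S,6S)-HNK. Directions turned for TUBA1A under ketamine (-0.037 to 0.0029) and E2+(2R,6R)-HNK (-0.062 to 0.22), TUBB2B under ketamine (-0.010 to 0.084), and TUBB2A (-0.052 to 0.030) and TUBG1 (-0.024 to 0.032) under E2+(2S,6S)-HNK. They also turned for TUBA1A (-0.026 to 0.065) and TUBB6 (-0.043 to 0.0097) between the metabolites without E2 and for TUBB2B between E2+ketamine and E2+(2R,6R)-HNK (-0.026 to 0.059).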
